A study of Mus musculus with 40 samples.

Results

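Slc13a3, Serinc3, Pkig, Trp53rka, Sulf2 and Tmem189 lie within 4.04 Mb of mouse chromosome 2, and each had lower mRNA levels in bone marrow-derived macrophages (BMDMs) of Cpeb4-/- mice than of WT mice at every time sampled. They were selected on that measured difference, called at every time between the genotypes, and on their position, so the genotype differences of these 6 genes, of the 27179 in the deposited table, are given below as a description, without a test. BMDMs are macrophages grown in culture from bone marrow with M-CSF, and lipopolysaccharide (LPS) is a bacterial cell wall component that activates them. The 40 poly(A) RNA libraries came from 4 male WT mice and 4 male mice with a full-body Cpeb4 knockout (Cpeb4-/-), all adult and all on a mixed C57BL/6J and 129 background. Cells of each mouse were sampled untreated (0 hr) and 1, 3, 6 and 9 hr after 10 ng/ml LPS, which gives 4 libraries for each genotype at each time. Each of 2 batches held 2 mice per genotype, and none of the 6 cages held mice of both genotypes, so the cage and the genotype cannot be told apart. Values are regularized log (rlog) levels on a log2 scale. Library size is corrected for, and values of genes with few reads are shrunk toward their average, so fold differences of weakly expressed genes are understated. The read depth behind them is unknown from these values. Only levels of the same gene are compared, since rlog is not corrected for gene length.

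The genes share an address on the chromosome rather than a pathway. Slc13a3 encodes the plasma membrane carrier that brings dicarboxylates such as succinate and alpha-ketoglutarate into the cell together with sodium. Serinc3 encodes a multipass membrane protein of the SERINC family, which is known for limiting the infectivity of retroviruses, and Sulf2 an extracellular enzyme that removes sulfate groups from heparan sulfate chains. Pkig encodes an inhibitor of the catalytic subunit of protein kinase A (PKA). Trp53rka encodes a kinase of the KEOPS complex, which makes the t6A modification of tRNAs, and Tmem189 encodes the desaturase that completes plasmalogens, the vinyl ether lipids of the membrane.

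Cpeb4 itself, on chromosome 11, did not separate the labelled genotypes at 0, 1, 3 or 9 hr. Its level at 0 hr ranged from 7.03 to 8.13 in WT and from 6.88 to 7.87 in Cpeb4-/- BMDMs, and at 6 hr from 10.09 to 10.67 and from 8.74 to 9.66 (difference −1.27 ± 0.19 SE, adjusted p = 0.00114, limma with Benjamini-Hochberg adjustment, used throughout). Tnf went from a mean of 12.48 at 0 hr to 16.84 at 1 hr and Il6 from 7.73 to 12.46 at 6 hr in WT BMDMs. For Cpeb4 the table holds 1 value over all counted exons of the gene, and the exons that the knockout allele lacks are not given in the sources used here, so this value does not check the labels, and genotypes are those of the labels. All 8 macrophage markers were expressed (mean rlog from 9.66 to 18.2). Of the other lists, 4 of 6 neutrophil, 2 of 4 dendritic cell, 1 of 4 B cell, 1 of 4 fibroblast, 0 of 4 T cell and 0 of 4 mast cell and basophil markers reached a mean rlog of log2 of 5. The mean rlog of the neutrophil list lay between 2.37 and 3.46 in WT libraries and between 2.55 and 3.46 in Cpeb4-/- libraries, and that of the fibroblast list between 0.67 and 1.93 and between 0.79 and 3.40, with no list marker at 0 in every library. Their part in the results was not tested. In bulk RNA, fewer cells that express a gene and less RNA per cell cannot be told apart.

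In the RefSeq annotation of GRCm38 (mm10), Serinc3 (163623273 to 163645149, minus strand) and Pkig (163658211 to 163726158, plus strand) lie 13.1 kb apart at one end of the segment. Slc13a3 (165405295 to 165473197) and Trp53rka (165490112 to 165493314) follow 1679 kb further on, 16.9 kb from each other and both on the minus strand. Sulf2 (166073899 to 166155683) and Tmem189 (167643225 to 167661544), also on the minus strand, lie beyond. The promoters of Slc13a3 and Trp53rka are shown because these adjacent genes read in the same direction, and that of Serinc3 because its genotype difference at 0 hr was the next largest after Slc13a3. Each window is 300 bases of RefSeq sequence (GRCm38.p6), read on the strand of the gene, from 250 bases before to 50 bases after its start. Capitals mark GGGCGG, the GC box bound by Sp1-type factors, and CACGTG, the E-box of bHLH factors such as the MYC and USF proteins, on either strand.
Slc13a3, chr2:165473148-165473447: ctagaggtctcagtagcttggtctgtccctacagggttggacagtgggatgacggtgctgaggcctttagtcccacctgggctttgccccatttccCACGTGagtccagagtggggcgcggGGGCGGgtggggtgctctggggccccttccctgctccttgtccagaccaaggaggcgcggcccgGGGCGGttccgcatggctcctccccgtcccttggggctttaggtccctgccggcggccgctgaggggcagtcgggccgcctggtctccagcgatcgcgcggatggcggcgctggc
Trp53rka, chr2:165493265-165493564: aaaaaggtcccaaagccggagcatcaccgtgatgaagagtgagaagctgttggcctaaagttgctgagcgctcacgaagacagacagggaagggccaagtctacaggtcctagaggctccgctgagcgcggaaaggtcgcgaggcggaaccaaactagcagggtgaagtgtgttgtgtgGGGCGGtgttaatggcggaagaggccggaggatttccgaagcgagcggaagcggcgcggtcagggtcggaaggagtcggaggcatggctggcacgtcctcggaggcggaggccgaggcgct
Serinc3, chr2:163645094-163645393: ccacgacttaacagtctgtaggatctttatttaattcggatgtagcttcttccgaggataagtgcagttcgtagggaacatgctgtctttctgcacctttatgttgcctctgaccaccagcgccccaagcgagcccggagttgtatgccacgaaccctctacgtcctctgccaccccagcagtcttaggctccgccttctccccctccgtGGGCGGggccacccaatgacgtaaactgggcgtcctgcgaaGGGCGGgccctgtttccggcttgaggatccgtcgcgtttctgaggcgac

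RefSeq promoter windows were matched for 5 of the 6 members. A GC box was found in 6 of their 8 windows, with at least 1 for each of the 5, and in 35.7% of the 32851 promoter windows of all genes. CACGTG was found for Slc13a3 alone, 154 bases before its start, and in 7.15% of all windows. The motifs of the main LPS-activated factors, GGGANTTCC (NF-kappaB, in 1.68% of all windows), TGANTCA (AP-1, 7.81%) and TTGCNNAA (C/EBP, 10.8%), read on both strands, were in none of the 8 windows of the members, which says only that these letters are not in these windows. Parts of the transcripts are shared with other genes in the GENCODE annotation, which bears on how reads are assigned. Of the 50-base stretches of Trp53rka transcripts, 35.6% also occur in its paralog Trp53rkb, which lies in the same segment. Of those of Tmem189, 28.4% occur in transcripts of other genes, mostly the read-through transcript Gm20431, and 21.3% of its exonic bases overlap that gene on the same strand. The values of Trp53rka and Tmem189 are uncertain to that extent. The overlaps of Tmem189 with Cebpb (9.56% of exonic bases), of Serinc3 with 0610039K10Rik (3.49%) and of Sulf2 with Ncoa3 (2.62%) are on opposite strands. Reads from these overlaps cannot be told apart without strand, while Slc13a3 and Pkig shared no stretch.

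Slc13a3 had the largest genotype difference of the 6 genes, and the difference was wider late in the LPS response. Untreated WT BMDMs held Slc13a3 at 6.84, 7.11, 7.12 and 7.30, and untreated Cpeb4-/- BMDMs at 4.96, 5.03, 5.07 and 5.16, a 4.10-fold lower level (difference −2.04 ± 0.10 SE, n = 4 per genotype). At 9 hr the WT values were 9.64, 9.87, 9.94 and 10.32, and the Cpeb4-/- values 6.09, 6.17, 6.24 and 6.35, a 13.2-fold lower level (difference −3.73 ± 0.13). The lowest WT library lay at least 1.51 above the highest Cpeb4-/- library at every time. In between, the level was 3.85-fold lower at 1 hr, 8.42-fold at 3 hr and 8.41-fold at 6 hr.

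LPS raised Slc13a3 in both genotypes. In WT BMDMs it rose by 1.45 ± 0.19 at 3 hr (adjusted p = 7.03e-07), 2.20 ± 0.19 at 6 hr (8.29e-10) and 2.85 ± 0.19 at 9 hr (2.02e-11), a 7.20-fold higher level than at 0 hr, and was higher in 4 of 4 mice each time. At 1 hr the change in WT was 0.03 ± 0.19 (adjusted p = 0.936). In Cpeb4-/- BMDMs it rose by 0.41 ± 0.12 at 3 hr (adjusted p = 0.00427), 1.17 ± 0.12 at 6 hr (1.26e-08) and 1.16 ± 0.12 at 9 hr (2.02e-08), also in 4 of 4 mice, and the change at 1 hr was 0.12 ± 0.12 (0.457). The call at 3 hr in Cpeb4-/- BMDMs was lost without mouse 62 (adjusted p = 0.0603). The changes of single mice at 9 hr ran from 2.53 to 3.04 in WT and from 1.01 to 1.32 in Cpeb4-/- BMDMs, and at 3, 6 and 9 hr they did not overlap between the genotypes. The share of all genes without such overlap was not counted. The difference between the 2 LPS responses follows from the values that chose the gene and was not tested.

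**Figure D1:**
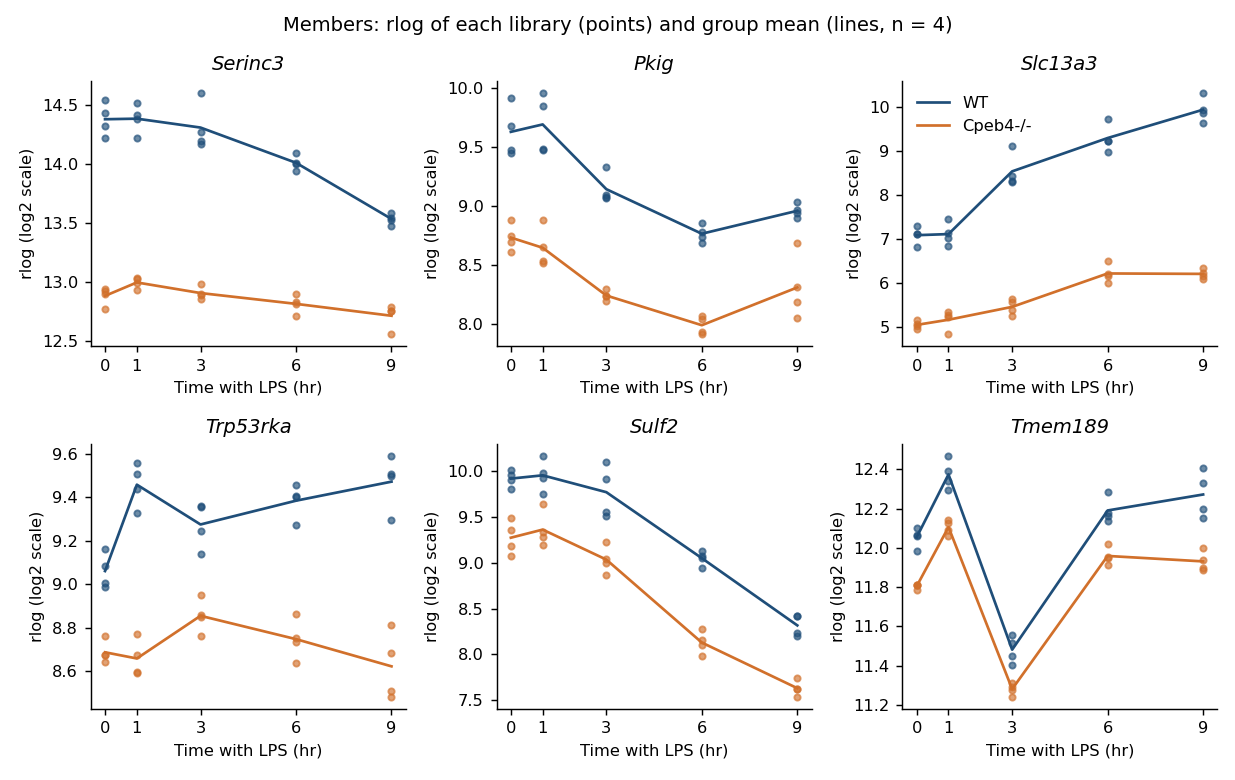
rlog level (log2 scale, vertical axis, a separate range in each panel) of the 6 genes against time with LPS (hr, horizontal axis) in WT and Cpeb4-/- BMDMs. Points are single libraries and lines the means of 4 mice. All 4 Cpeb4-/- points lie below all 4 WT points in every panel at every time, and the lines for Slc13a3 part from a difference of −2.04 at 0 hr to −3.73 at 9 hr.

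Serinc3 showed the opposite course, with a genotype difference that was largest at 0 hr. The untreated WT libraries were at 14.22, 14.32, 14.43 and 14.54 and the untreated Cpeb4-/- libraries at 12.77, 12.90, 12.92 and 12.94, a 2.82-fold lower level (difference −1.49 ± 0.07). At 9 hr they were at 13.47, 13.53, 13.55 and 13.59 and at 12.56, 12.75, 12.76 and 12.79, a 1.76-fold lower level (−0.82 ± 0.06). The groups remained at least 0.69 apart. In WT BMDMs Serinc3 fell by 0.37 ± 0.08 at 6 hr (adjusted p = 0.000455) and by 0.84 ± 0.08 at 9 hr (1.49e-08) in 4 of 4 mice, and in Cpeb4-/- BMDMs by 0.17 ± 0.05 at 9 hr (0.00686), a call lost without mouse 2 (0.0584). The changes at 1 and 3 hr did not pass in either genotype, nor did that at 6 hr in Cpeb4-/- BMDMs (−0.07 ± 0.05, adjusted p = 0.239). After quantile normalization, falls were called at 1 hr and at 3 hr as well (in WT −0.36 and −0.67, in Cpeb4-/- BMDMs −0.15 and −0.54), and at 6 hr in Cpeb4-/- BMDMs (−0.79), so the start of the fall depends on the scaling. Without mouse 2 the change at 1 hr in Cpeb4-/- BMDMs was instead called as a rise (0.14, adjusted p = 0.0315).

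Sulf2 fell with LPS in both genotypes, from a lower starting level in Cpeb4-/- BMDMs. Untreated WT libraries were at 9.80, 9.90, 9.96 and 10.02 and untreated Cpeb4-/- libraries at 9.08, 9.18, 9.36 and 9.49 (difference −0.65 ± 0.09, 1.57-fold lower). At 9 hr they were at 8.20, 8.23, 8.41 and 8.42 and at 7.54, 7.62, 7.62 and 7.74 (−0.69 ± 0.08, 1.61-fold lower). The groups did not overlap, but at 1 hr the nearest libraries were only 0.11 apart. Sulf2 fell by 0.87 ± 0.11 at 6 hr and 1.61 ± 0.11 at 9 hr in WT BMDMs (adjusted p = 3.77e-07 and 4.34e-11), a 3.04-fold lower level. In Cpeb4-/- BMDMs it fell by 1.15 ± 0.10 and 1.65 ± 0.10 (1.02e-09 and 4.11e-12), 3.13-fold lower at 9 hr. These falls were seen in 4 of 4 mice of each genotype, and at 9 hr the changes of single mice ran from −1.73 to −1.38 in WT and from −1.87 to −1.34 in Cpeb4-/- BMDMs. At 3 hr the change was −0.24 ± 0.10 in Cpeb4-/- BMDMs (adjusted p = 0.037) and −0.15 ± 0.11 in WT BMDMs (0.24), and the Cpeb4-/- call was lost without a filter on low values, after quantile normalization and without mouse 2 or mouse 3 (0.0642, 0.088, 0.132 and 0.099).

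Pkig, the PKA inhibitor, fell by 3 hr in both genotypes. Untreated WT libraries were at 9.45, 9.47, 9.68 and 9.92 and untreated Cpeb4-/- libraries at 8.61, 8.69, 8.75 and 8.88 (difference −0.89 ± 0.10, 1.86-fold lower). At 9 hr the WT libraries were at 8.90, 8.94, 8.97 and 9.03 and the Cpeb4-/- libraries at 8.05, 8.19, 8.32 and 8.69 (−0.65 ± 0.12, 1.57-fold lower). The groups lay apart at each time, by 0.21 at the closest, and the difference was largest at 1 hr (2.06-fold lower). In WT BMDMs Pkig fell by 0.49 ± 0.11 at 3 hr, 0.86 ± 0.11 at 6 hr and 0.67 ± 0.11 at 9 hr (adjusted p = 0.00046, 3.13e-07 and 1.26e-05). In Cpeb4-/- BMDMs it fell by 0.49 ± 0.10, 0.74 ± 0.10 and 0.42 ± 0.10 (0.00024, 1.23e-06 and 0.001), and all 8 mice showed each fall. At 1 hr neither change passed (0.06 ± 0.11 in WT, adjusted p = 0.702, and −0.09 ± 0.10 in Cpeb4-/- BMDMs, 0.533).

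Trp53rka, the KEOPS kinase next to Slc13a3, rose within 1 hr in WT BMDMs. Untreated WT libraries were at 8.99, 9.01, 9.09 and 9.16 and untreated Cpeb4-/- libraries at 8.64, 8.67, 8.68 and 8.76 (difference −0.37 ± 0.06, 1.30-fold lower). At 1 hr they were at 9.33, 9.44, 9.51 and 9.56 and at 8.59, 8.60, 8.68 and 8.77 (−0.80 ± 0.07, 1.74-fold lower). The groups did not overlap and were 0.19 apart at 3 hr, where they came closest. In WT BMDMs Trp53rka rose by 0.40 ± 0.07 at 1 hr, 0.32 ± 0.07 at 6 hr and 0.41 ± 0.07 at 9 hr (adjusted p = 0.000133, 0.000307 and 2.77e-05), in 4 of 4 mice each time, while in Cpeb4-/- BMDMs the changes at those times were −0.03, 0.06 and −0.06 (0.77, 0.424 and 0.408), although that at 6 hr was called after quantile normalization (0.28, 0.000975). The changes of single mice at 1, 6 and 9 hr did not overlap between the genotypes, as those of Serinc3 did not at 6 and 9 hr. The share of all genes without such overlap was not counted. The difference in the response of Trp53rka follows from the values that chose the gene and was not tested. At 3 hr the gene rose by 0.21 ± 0.07 in WT and 0.17 ± 0.07 in Cpeb4-/- BMDMs (0.0109 and 0.035), but the WT call was lost without mouse 25 or mouse 69 (0.0713 and 0.0559) and the Cpeb4-/- call without mouse 3, 62 or 2 (0.115, 0.0841 and 0.0648). Its paralog Trp53rkb, with which it shares reads, differed by −0.31 to −0.01 between the genotypes, and no adjusted p for it was under 0.0728.

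Tmem189 had the smallest genotype differences of the 6 genes at every time and a time course that turned from a rise to a fall. Untreated WT libraries were at 11.99, 12.06, 12.07 and 12.10 and untreated Cpeb4-/- libraries at 11.79, 11.81, 11.81 and 11.81 (difference −0.25 ± 0.04, 1.19-fold lower). At 3 hr they were at 11.40, 11.45, 11.52 and 11.56 and at 11.24, 11.28, 11.29 and 11.31 (−0.20 ± 0.05, 1.15-fold lower), only 0.09 apart. The desaturase gene rose at 1 hr, by 0.32 ± 0.06 in WT and 0.30 ± 0.03 in Cpeb4-/- BMDMs (adjusted p = 0.000119 and 2.78e-07), and at 3 hr it fell below its starting level, by 0.57 ± 0.06 and 0.52 ± 0.03 (1.54e-08 and 1.32e-11). At 6 and 9 hr small rises of 0.14 and 0.22 in WT and 0.15 and 0.13 in Cpeb4-/- BMDMs were called (0.0327, 0.00176, 0.000308 and 0.0022). Those late changes were falls after quantile normalization (−0.46, −0.18, −0.34 and −0.24), so that only the fall at 3 hr and the rise at 1 hr in Cpeb4-/- BMDMs were called in the same direction under both scalings (at 1 hr in WT 0.11, adjusted p = 0.115). The WT call at 6 hr was also lost without mouse 25, 88 or 69 (0.147, 0.0568 and 0.0582).

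**Figure D2:**
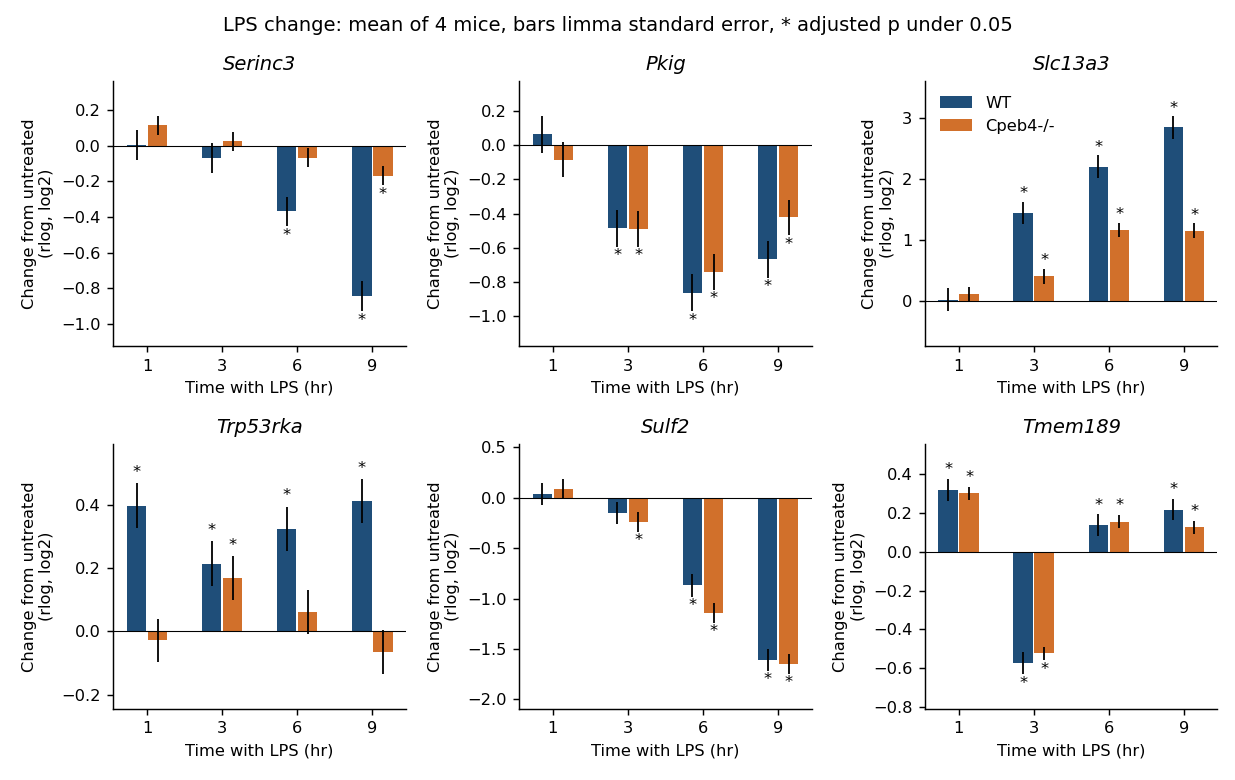
Change of the rlog level (log2, vertical axis, a separate range in each panel) from 0 hr to 1, 3, 6 and 9 hr with LPS (horizontal axis) for the 6 genes in WT and Cpeb4-/- BMDMs. Bars are means of 4 mice, lines the limma standard error, and asterisks an adjusted p under 0.05. Slc13a3 has the tallest bars (2.85 in WT and 1.16 in Cpeb4-/- BMDMs at 9 hr), and Sulf2 reaches −1.61 and −1.65. The late bars of Tmem189 point up, but those changes were falls after quantile normalization, which is not plotted.

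The 6 genes did not share a direction of response to LPS. In WT BMDMs 2, 4, 6 and 6 of them were called at 1, 3, 6 and 9 hr, where 33.9%, 67.8%, 77.9% and 71.5% of all tested genes were called. In Cpeb4-/- BMDMs 1, 5, 4 and 5 were called, against 43.8%, 71.3%, 79.1% and 72.8% of all genes. At 9 hr in WT BMDMs Slc13a3, Trp53rka and Tmem189 were called higher than at 0 hr and Serinc3, Pkig and Sulf2 lower, which is 3 in each direction, beside 35.9% of all genes called higher and 35.6% called lower. With 6 genes, these counts do not set the members apart from the background.

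At each time the highest Cpeb4-/- value was under the lowest WT value for 6 of 6 genes. Such downward separation was seen for 5.04%, 8.11%, 6.58%, 12% and 8.51% of all tested genes (in the order 0, 1, 3, 6 and 9 hr), but it belongs to the contrast that selected the 6 genes and is read no further. The same order held for the average of the 5 libraries of each mouse, which follows from the separation at every time and adds no support. Only the size of the gaps is described. For Slc13a3 the 4 WT mice averaged from 8.22 to 8.78 and the 4 Cpeb4-/- mice from 5.49 to 5.70, and the gap between the nearest mice was 2.52. The gaps were 1.16 for Serinc3, 0.58 for Pkig, 0.52 for Sulf2, 0.46 for Trp53rka and 0.18 for Tmem189. Within each batch of 2 WT and 2 Cpeb4-/- mice the sign of the differences was fixed by that separation too. They ran from −3.91 to −1.91 for Slc13a3, from −1.55 to −0.76 for Serinc3, from −1.14 to −0.56 for Pkig, from −1.03 to −0.54 for Sulf2, from −0.90 to −0.29 for Trp53rka and from −0.37 to −0.19 for Tmem189.

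Of the 12676 genes tested at every time, 30 (0.237%) were called between the genotypes at all 5 times, 17 of them lower in untreated Cpeb4-/- BMDMs. They included 7 genes on chromosome 2. The 6 of these in the segment were the 6 members, 11.3% of the 53 segment genes tested at every time. The members were chosen for being called at every time, and they set the ends of the segment. That share was thus fixed by the choice and is not compared with the share of all genes. The other chromosome 2 gene was Spint1, a protease inhibitor, which was higher in Cpeb4-/- BMDMs (0.93 at 0 hr, adjusted p = 0.0207) and lies outside the segment. Of the 30, 3 were on chromosome 11, which carries Cpeb4. In a single fit of all 40 libraries with the mouse as a block, 142 of 13103 genes (1.08%) were called at all 5 times, and those in the segment were the 6 members together with Pabpc1l, Dbndd2 and Cd40. Just inside the selection stood Tmem189, with differences of −0.34 to −0.20, and just outside it Pabpc1l, with differences of −0.87 to −0.55 and separated groups at all 5 times, but an adjusted p of 0.0724 at 9 hr.

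The segment held 96 genes of the table. In the same order of times the median genotype difference of those other than the members was −0.04, 0.01, −0.04, −0.12 and −0.07, beside 0.01, 0.02, 0.01, −0.02 and 0.00 over all genes. Of those tested, 5 of 49 were called at 0 hr (10.2%, all lower), 6 of 51 at 1 hr (11.8%, 5 lower and 1 higher), 6 of 48 at 3 hr (12.5%, 5 lower and 1 higher), 24 of 48 at 6 hr (50%, 19 lower and 5 higher) and 9 of 49 at 9 hr (18.4%, 6 lower and 3 higher). Over all genes 1.31%, 1.91%, 3.68%, 16.3% and 7.91% were called. The segment gene called higher at 1 hr was Rbpjl, which passed the filter on low values only through its Cpeb4-/- libraries. Those called lower at 0 and 1 hr included the weakly expressed 5031425F14Rik, which may have passed the filter through its WT libraries alone. The single fit of all libraries with the mouse as a block called 21 of 49 at 1 hr, 10 at 3 hr and 17 at 9 hr, where it called 33%, 10.6% and 18.1% of all genes. In the 4 Mb on either side, 1 of 24, 1 of 24, 1 of 24, 7 of 25 and 3 of 24 genes were called. Of 25 flank genes tested at 1 or more times, 1 was called at 3 or 4 times. It was Ptpn1, past Tmem189, which was called lower at 3 times (−0.37 to −0.03 over the 5) and is named after its values were seen. The counts in the segment depended on single mice except at 6 hr, where leaving out any mouse gave 21 to 24. At 0 hr the count was 3 without Cpeb4-/- mouse 3 or 62 or WT mouse 88. At 1 hr there were 10 without Cpeb4-/- mouse 2 and 16 without WT mouse 69. At 3 hr it was 1 without Cpeb4-/- mouse 3, 2 without WT mouse 25 or Cpeb4-/- mouse 62, 3 without Cpeb4-/- mouse 2 or 55, and 14 without WT mouse 88. At 9 hr it was 20 without Cpeb4-/- mouse 2, and 3 or 4 without any other mouse. The share of all genes called without a mouse was not counted, so these shifts are not read as particular to the segment.

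**Figure D3:**
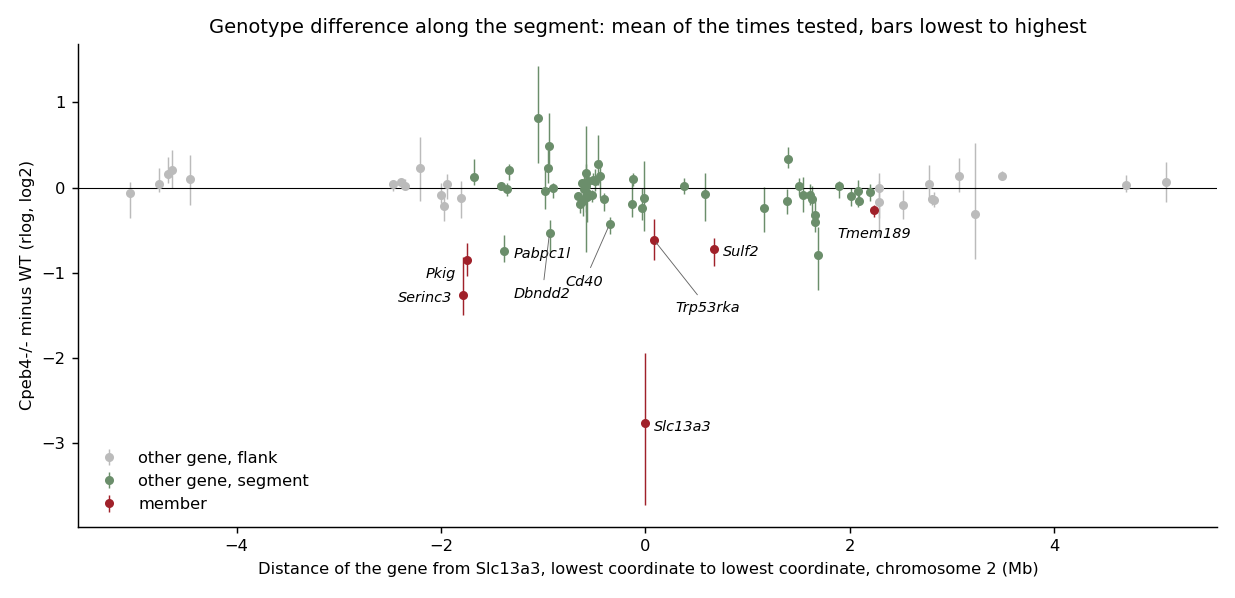
Genotype difference (Cpeb4-/- minus WT, rlog, log2, vertical axis) of the genes of the segment and its flanks against their distance from Slc13a3 (Mb, horizontal axis), for genes tested at 3 or more times. Points are means over the times tested and bars run from the lowest to the highest time. The 6 members lie below 0 with Slc13a3 lowest (bar from −3.73 to −1.94), while most other genes of the segment and flanks lie near 0.

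Of 51 other genes of the segment tested at 1 or more times, none was called at 5 times, 4 at 3 or 4 times, 24 at 1 or 2 times and 23 at none. That none was called at 5 times belongs to the choice of the members. The matching shares of all genes at fewer times were not counted, so these numbers are read no further. The 4 called at 3 or 4 times were Pabpc1l, Dbndd2, Cd40 and Prex1. Pabpc1l, a poly(A)-binding protein relative, was lower in Cpeb4-/- BMDMs at 0, 1, 3 and 6 hr (−0.85, −0.81, −0.65 and −0.87, adjusted p = 0.00804, 0.00849, 0.0366 and 0.00767), with −0.55 at 9 hr (0.0724). The value at 9 hr was called with the mouse as a block (0.0116), after quantile normalization (0.0492) and without Cpeb4-/- mouse 2 (0.0252). Its call at 3 hr was lost in 7 of the 8 fits that left out a mouse, with p from 0.0113 to 0.105 over the 8. It was also lost without a filter on low values (0.0968) and with batch as a covariate (0.0542). The call at 6 hr was lost without the filter (0.0526). Dbndd2 was lower at 0, 1, 3 and 6 hr (−0.59, −0.76, −0.54 and −0.38, adjusted p = 0.0252, 0.0384, 0.00771 and 0.00959). Calls were lost in 4 of 8 fits that left out a mouse at 0 hr and 6 of 8 at 1 hr. Without a filter on low values Dbndd2 lost its calls at 0, 1 and 6 hr (0.126, 0.115 and 0.0501), and without the variance trend those at 0 and 1 hr (0.0553 and 0.0621). At 9 hr it stood at −0.40 (0.0507), and it was called there with the block (0.0129), with batch as a covariate (0.0181), after quantile normalization (0.0485), with a minimum rlog of 5 (0.0492) and without Cpeb4-/- mouse 2 (0.00115). Cd40, the costimulatory receptor of activated macrophages, was lower at 0, 1, 6 and 9 hr (−0.36, −0.49, −0.41 and −0.55, adjusted p = 0.00394, 0.0038, 0.00182 and 0.0117), and no fit without a mouse ended these calls. Without a filter on low values Cd40 lost the call at 9 hr (0.0549). At 3 hr its difference of −0.35 (0.103) was called with the block (0.0149) and without WT mouse 88 (0.0152). Prex1, an activator of Rac GTPases, was lower at 3, 6 and 9 hr (−0.34, −0.52 and −0.28, adjusted p = 0.0387, 6.73e-05 and 0.0327), with calls lost in 6 of 8 fits at 3 hr and at 9 hr. The calls at 3 and 9 hr were also lost without a filter on low values and without the variance trend. That at 3 hr was lost with batch as a covariate too, and that at 9 hr after quantile normalization.

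Of the 8 expressed genes nearest to a member on either side and not members themselves, 4 were called at no time. The share of all genes called at no time was not counted, so this count is read no further. Ada, adenosine deaminase, lies 0.413 kb past Pkig and differed by 0.03 to 0.33 (no call, although that at 9 hr was called with the block, adjusted p = 0.0141). Ocstamp, 4.90 kb from Slc13a3, a gene of osteoclast fusion, differed by −0.51 to 0.31 (no call), and Zmynd8, a chromatin reader 291 kb past Trp53rka, by −0.07 to 0.11 (no call). Ttpal, 4.26 kb from Serinc3, was called at 2 times (−0.36 to 0.08), as was the coactivator gene Ncoa3 (−0.39 to 0.17), 0.657 kb from Sulf2. The call of Ttpal at 9 hr and that of Ncoa3 at 3 hr were each lost in 5 of 8 fits that left out a mouse. They were also lost without a filter on low values and without the variance trend. Ncoa3 was called with the block at 1 hr as well, in the other direction (0.17, adjusted p = 0.0264). Ube2v1, a ubiquitin-conjugating enzyme variant 11.2 kb from Tmem189, differed by −0.16 to 0.04 (no call). Cebpb, a transcription factor of macrophage activation, lies 27.4 kb on the other side of Tmem189 by its RefSeq position. It was called at 1 hr (−0.36, adjusted p = 0.0364), in a call lost in 6 of 8 fits that left out a mouse. Cebpb also lost this call without a filter on low values, without the variance trend, with batch as a covariate and after quantile normalization. At 6 hr it was called only after quantile normalization (0.30, adjusted p = 0.0195) or without Cpeb4-/- mouse 55 (0.0401).

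The other genes of each member's family or pathway were compared between the genotypes in 6 lists. In the order of times, 0 of 41, 1 of 41, 1 of 42, 4 of 42 and 1 of 40 tested genes were called, beside 1.31%, 1.91%, 3.68%, 16.3% and 7.91% of all genes, so these counts do not set the lists apart. With the mouse as a block in 1 fit of all libraries, 1, 16, 7, 4 and 12 of 41 were called, beside 3.16%, 33%, 10.6%, 16.3% and 18.1% of all genes. The called genes, some named after their values were seen, were Tmem86a, a lysoplasmalogenase (−0.47 at 1 hr and −0.50 at 3 hr, adjusted p = 0.0376 and 0.00531), the heparan sulfate enzymes Ndst2 and Hs6st1 (−0.38 and −0.44 at 6 hr, 0.0016 and 0.00133), Tmem86b and the phosphotransferase Cept1 (−0.44 and −0.20 at 6 hr, 0.00287 and 0.0195), and Prkar2b, a PKA regulatory subunit (0.62 at 9 hr, 0.00626). These counts also depended on single mice. Leaving out WT mouse 69 gave 11 genes at 1 hr, and leaving out any of Cpeb4-/- mice 3, 55 and 62 and WT mice 25, 87 and 88 gave 0. Leaving out WT mouse 88 gave 12 genes at 3 hr, and leaving out Cpeb4-/- mouse 2 gave 22 at 9 hr. The share of all genes called without a mouse was not counted, so these shifts are not read as particular to the lists.

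At 9 hr with LPS, 31 of the 41 tested genes of these lists were called in each genotype (75.6%), beside 71.5% of all genes in WT and 72.8% in Cpeb4-/- BMDMs, so being called was not particular to the lists. Among heparan sulfate genes, 2 of 11 tested rose and 8 fell at 9 hr in each genotype, with medians of −0.64 in WT and −0.54 in Cpeb4-/- BMDMs beside 0.00 and −0.01 over all genes. Ext1, a polymerase of the chain, rose by 1.59 and 1.43 (adjusted p = 2.34e-14 and 7.02e-12), and Hs3st1, a 3-O-sulfotransferase, fell by 2.23 and 2.80 (9.51e-10 and 5.31e-12). Of 7 PKA genes 4 fell in each genotype, 1 rose in WT and 2 rose in Cpeb4-/- BMDMs. Pkib, the sister inhibitor of Pkig, fell by 1.12 and 1.16 (1.12e-12 and 1.88e-14). Of 3 SERINC genes 1 rose and 1 fell in WT, and 2 rose and 1 fell in Cpeb4-/- BMDMs. Serinc5 fell by 1.53 and 1.34 (1.39e-11 and 4.04e-13) and Serinc1 rose by 0.48 and 0.49 (5.85e-05 and 6.66e-06). Of 4 dicarboxylate carriers 2 rose and 1 fell in each genotype, the fall being that of Slc13a2 (−1.59 and −0.93, adjusted p = 1.74e-07 and 5.89e-06). Of 7 KEOPS and t6A genes 1 rose and 3 fell in WT, and 0 rose and 2 fell in Cpeb4-/- BMDMs, with Osgep at −0.63 and −0.65 (2.78e-05 and 7.71e-05). Of 9 ether lipid genes 3 rose and 4 fell in each genotype, Cept1 by 1.44 and 1.29 upward (3.99e-16 and 3.52e-16) and Tmem86a by −1.16 and −0.71 (4.27e-11 and 2.63e-06).

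Across the 40 libraries the members were alike as long as the genotype difference was kept in the values. With the mean of each time subtracted, Pearson r over the 15 pairs ran from 0.81 to 0.92 (median 0.88), given as a description since the libraries share 8 mice and the genotype that chose the genes. With the means of each genotype and time subtracted, r ran from −0.53 to 0.62 (median 0.10), and 7 pairs were below 0. The highest was between Serinc3 and Sulf2, and the lowest between Serinc3 and Trp53rka.

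**Figure D4:**
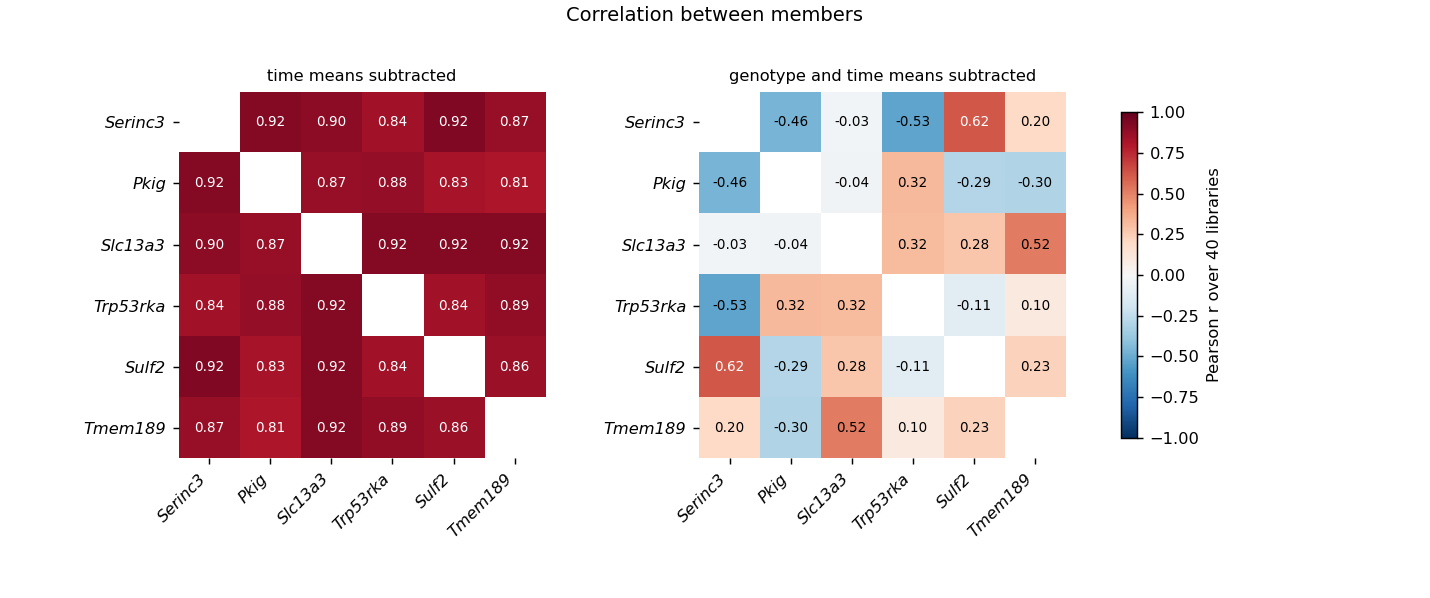
Pearson r between the 6 genes over 40 libraries, with the time means subtracted (left) and with the genotype and time means subtracted (right). Rows and columns are genes and colour gives r from −1 to 1. The left panel runs from 0.81 to 0.92 and the right panel from −0.53 to 0.62.

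With the time means subtracted, the genes most like Slc13a3 were BC064078 (r = 0.96), Siglece, an inhibitory sialic acid receptor of myeloid cells (0.95), and Gm15987 (0.94), on chromosomes 6, 7 and 6, and the least like was Rpia (−0.94). For Serinc3 they were Klra17 (0.94), Laptm5 (0.92) and BC064078 (0.92), with Gm6334 lowest (−0.97). For Pkig they were Cd37, Neurl3 and Dbndd2 (each 0.96), of which Dbndd2 lies in the segment, with 5730455P16Rik lowest (−0.95). Siglece led for Trp53rka (0.93), Slc9a9 for Sulf2 (0.93) and Rtn4 for Tmem189 (0.91). These values hold the genotype difference and are not independent of how the 6 genes were picked.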

How the data were processed

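Poly(A) RNA of 40 BMDM libraries was sequenced, from 4 mice per genotype at 5 times. The values are rlog levels (log2 scale) deposited by the authors, who aligned reads to mm10 with STAR 2.3.0e, counted them with featureCounts and transformed them with DESeq2 per the submitters' processing notes. Read depth is unknown, and library size is already corrected. The 6 members and all gene lists were chosen with earlier results of these data known.

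Differences were estimated with limma 3.58.1 in R 4.3.3 (eBayes with trend), separately at each time for the genotypes (8 libraries) and within each genotype for LPS (20 libraries), on genes whose average rlog in those libraries reached log2 of 5. P-values were adjusted by Benjamini-Hochberg over all genes tested, and an adjusted p under 0.05 was called. A segment gene starts between the first and last base of the members, and flanks are the next 4 Mb. Positions were found for 25271 of 27179 gene IDs. Promoter windows and gene positions came from RefSeq (GRCm38.p6). Named genes were the members, segment genes called at 3 or more times, the nearest gene on either side of each member, at most 3 called genes per pathway list, the 3 most and 3 least correlated genes of each member, Cpeb4, and Tnf, Il6 and Il1b.

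The scripts were tested on simulated data. Libraries of the same mouse deviated together in 68 of 80 pairs (r over 0.1, median 0.29), and the pairing is that of the mouse named in the labels. No 2 libraries held identical values. Alternatives were the filter, the variance model, batch as a covariate, quantile normalization, the mouse as a block, leaving out each mouse, and a widened segment. The mouse averages after quantile normalization and within batches, and the count of separated members after quantile normalization, were added after seeing the data.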

Additional observations from a re-analysis of the deposited data

Results flagged for a closer look

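In 3 of 60 groups of 4 libraries, 1 library of a member stood far from the other 3 by Dixon's test, where chance marks about 1 in 20 groups. Serinc3 in Cpeb4-/- BMDMs at 9 hr was lowest in mouse 2 (12.56). Pkig in WT BMDMs at 3 hr was highest in mouse 87 (9.33). Tmem189 in untreated Cpeb4-/- BMDMs was lowest in mouse 55 (11.79). None of these libraries crossed into the range of the other genotype.

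From 0 to 1 hr with LPS, Pkig was higher in all 4 WT mice and lower in all 4 Cpeb4-/- mice. The smallest of these changes were near 0, at 1.36e-05 in WT and −0.004 in Cpeb4-/- BMDMs. The mean change in Cpeb4-/- BMDMs minus that in WT BMDMs was −0.15. The difference was not tested, and neither change passed its own test. The share of all genes that split in this way was not counted.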

How the results depend on the processing

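Of 510 alternative values for the genotype differences of the members, 505 moved by less than the spread between replicates, and all kept their sign. The other 5 were Trp53rka at 3 hr within batches (−0.29 and −0.55) and, after quantile normalization, Serinc3 at 6 and 9 hr (−0.998 and −0.71) and Tmem189 at 6 hr (−0.15). The sign within batches and without a mouse was fixed by the separation of the members at every time. Of 528 alternative values for their LPS changes, 7 reversed, all after quantile normalization: Serinc3 in WT at 1 hr (−0.36) and in Cpeb4-/- BMDMs at 1 and 3 hr (−0.15 and −0.54), and Tmem189 at 6 and 9 hr in WT (−0.46 and −0.18) and in Cpeb4-/- BMDMs (−0.34 and −0.24). A further 15 lost a call and 4 gained one. The cause was not tested.

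With the mouse as a replicate block, which pairs the times of a mouse, 0 of the 33 LPS calls of the members ended and 0 were gained. For the genotypes, the fit with the replicate block also took all 40 libraries together in place of 8 per time, and the effects of the 2 changes were not separated. It called 21, 10 and 17 other segment genes at 1, 3 and 9 hr, and 1, 16, 7 and 12 list genes at 0, 1, 3 and 9 hr.

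Without a filter on low values, the segment count was 3 at 0 hr and 2 at 3 hr, and the list count 0 at 1 hr. With a minimum rlog of 5, the segment count was 2 at 0 hr and 3 at 1 hr, and the list count 2 at 9 hr. Without the variance trend, the segment count was 4 at 9 hr and the list count 0 at 1 hr. With batch as a covariate, the list count was 0 at 1 hr and 4 at 9 hr. After quantile normalization the list count was 2 at 9 hr, and 2 members were called by LPS at 1 hr in Cpeb4-/- BMDMs. The median r between members was 0.10 with genotype means also subtracted.

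Leaving out each mouse in turn gave 3 to 5, 4 to 16, 1 to 14, 21 to 24 and 3 to 20 segment genes at 0, 1, 3, 6 and 9 hr. It gave 0 to 11, 1 to 12 and 1 to 22 list genes at 1, 3 and 9 hr, 4 to 10 list genes called by LPS in WT at 1 hr, and 1 to 2 and 3 to 5 members called by LPS in Cpeb4-/- BMDMs at 1 and 3 hr. Except for the genotype fit with the block, the share of all genes called was not counted under these alternatives. The shifts are thus not read as particular to the segment, the lists or the members. Depth is unknown, so no counting error can be given.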

Other observations

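Some other genes of the segment, chosen after their values were seen, differed between the genotypes at fewer times. Slpi, a secreted protease inhibitor, was higher in Cpeb4-/- BMDMs at 6 hr (1.43, adjusted p = 1.69e-05) and 9 hr (1.27, 0.00132), with 0.69 at 0 hr (0.0619). Arfgef2, a guanine nucleotide exchange factor, was higher at 3 hr (0.48, 0.0126) and 6 hr (0.36, 0.000499). Rbpjl at 1 hr lay between 0.66 and 1.87 in WT and between 3.92 and 5.28 in Cpeb4-/- BMDMs (difference 3.20). Its WT values were below log2 of 5, so it passed the filter only through its Cpeb4-/- libraries, and only at this time. Its call is therefore read no further. In the direction of the members, 5031425F14Rik was lower at 0 hr (−2.47) and 1 hr (−2.23), the only 2 times at which it passed the filter. A weakly expressed gene with so large a difference can pass the filter through its WT libraries alone, so these calls are also read no further. The low levels of Rbpjl and 5031425F14Rik place them in the range where rlog draws values together.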
